A study of Homo sapiens with 4 samples.

Results

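The genes described here encode the enzymes and proteins that remove acetyl groups from histones, remove methyl groups from histones, and write, bind or erase DNA methylation, with the core of the Polycomb complex PRC2 that methylates histone H3. They were taken by name from the array: probes for the histone deacetylases (HDAC), the sirtuins (SIRT), the histone demethylases of the KDM families, the DNA methyltransferases (DNMT), the TET dioxygenases, the methyl-CpG binding proteins (MBD), EZH1, EZH2, SUZ12 and EED, and the UHRF proteins. The name rule matched 88 probes of 52 genes among the 41000 probes and 30811 gene names of the array. KDM5D, a Y-linked gene, was not described, which left 87 probes of 51 genes. The rule used names and no measured value.

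Gene expression was measured in NB4, an established human cell line of acute promyelocytic leukemia (APL), and in a clone of it resistant to arsenic trioxide (ATO), the drug that binds the PML part of the PML-RARA fusion protein and leads to its degradation. Naive NB4 cells, not selected with ATO, served as the control, and each line was represented by 2 independent flasks in RPMI medium with 10% serum. The resistant cells had been kept out of ATO for a week, so neither line was in the drug when RNA was taken. The resistant line is a single clone derived in-house, named NB4-VM-AsR1 in the labels and NB4-EV-AsR1 in the methods, so that the change that came with resistance and any other difference of that clone cannot be told apart. Each flask was hybridized to its own 1-colour Agilent array on a shared slide, where the naive flasks took the first positions and the resistant flasks the last, and position and line cannot be told apart.

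In APL the PML-RARA protein sits on retinoic acid target genes and recruits corepressor complexes that contain histone deacetylases, and it has been linked there to DNA methyltransferases and to Polycomb. Histone deacetylases and sirtuins remove acetyl groups from lysines, the sirtuins with NAD as a cofactor. DNMT1 copies DNA methylation after replication with the help of UHRF1, DNMT3A and DNMT3B add it at new sites, and the TET enzymes oxidize it as the first step of its removal.

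The level of a probe is given on the log2 scale relative to the 75th percentile of its array, so that 0 is a probe as bright as that percentile. Levels can be compared between arrays for the same probe and not between different probes. A change is the mean of the resistant flasks minus that of the naive flasks. A gene was read from its probe with the highest mean over the 4 arrays, and it was called where limma's adjusted p-value over all 28221 probes tested was below 0.05 and the change was at least 2-fold.

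The probes that carry the changes described below, with DNMT3B as the largest change that missed the threshold, are shown by their first 30 of 60 bases, written in lower case from the 5′ end as the array design lists them. DNMT3L was read at chr21:45666270-45666329 (minus strand), TET2 at chr4:106200570-106200629 (first probe) and chr4:106156863-106156922 (second probe), HDAC9 at chr7:18708002-18708061 and DNMT3B at chr20:31397064-31397123 (plus strand for these), all in the hg19 build of the file headers. The headers give no position for the KDM4A probe. Whether a probe lies in a coding exon or a UTR was not determined here.
DNMT3L: taagagaatatttcaagtatttttcaacag
KDM4A: cttcccaagagagtcaaatctagactgtca
TET2, first probe: ttgctaatataggaatatcaggttgactat
TET2, second probe: aattcttcagtatcaacccaatctctccaa
HDAC9: ttccatctcataaatattcattttcttcaa
DNMT3B: aactgtgccttgtttcaacagtttttgcta

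Between 27922 and 28244 of the 41000 probes gave a signal well above background, the naive flasks lying within the range of the resistant flasks. Of the 87 probes described here 81 or 82 did so on each array and none was saturated. NB4 was checked against 6 promyelocyte genes, of which MPO, PRTN3, AZU1, CTSG and CD33 had signal in every flask and ELANE in 1 naive and both resistant flasks. AZU1 (change 1.17, adjusted p = 0.0472) and ELANE (change 2.49, adjusted p = 0.0169) were called higher in the resistant line by limma. Of the 3 T cell genes, CD3D and CD3G were called lower and were not above background in the resistant flasks, while CD3E had a change of -0.01 with an adjusted p of 0.984. The summed level of the 3 was 0.77 and 1.22 in the naive flasks and -4.03 and -3.89 in the resistant flasks. MARCO alone of 3 monocyte genes was called (higher), no B cell or erythroid gene was, and none of 4 stromal genes was above background on all arrays. The part that any of these markers has in the results below was not tested.

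Of the 51 genes, 4 were called: DNMT3L, KDM4A and TET2 rose in the resistant line and HDAC9 fell. They stood at 7.84% of the genes, where 5.95% of all 16545 genes tested were called, and the 3 higher calls and the 1 lower call stand beside shares of 2.8% and 3.16% of all genes. The other 47 were not called, so that the share of the group was close to the background of the comparison. With the normexp background correction or the methods' t-test after adjustment, none of the 51 genes was called, and none of all probes was. At an unadjusted p below 0.05 there were 3 and 11 of the 51 genes. With normexp after bright local backgrounds were reset, limma called 4 of the 51 genes (DNMT3B, DNMT3L, KDM4A and TET2) and 1189 of all probes. By probes, 4 of the 82 tested were called (4.88%, against 5.27% of all probes), 3 of them higher (2.3% of all probes) and 1 lower (2.97%). The DNMT3L and HDAC9 probes were above background in only 1 line each and entered the test through that line. Of the 48 genes whose probe was well above background on all 4 arrays, KDM4A and TET2 were called (4.17%, against 4.06% of 15336 such genes). A lower level in a bulk sample may come from fewer cells with the transcript or from less of it per cell, and these cannot be told apart.

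**Figure D1:**
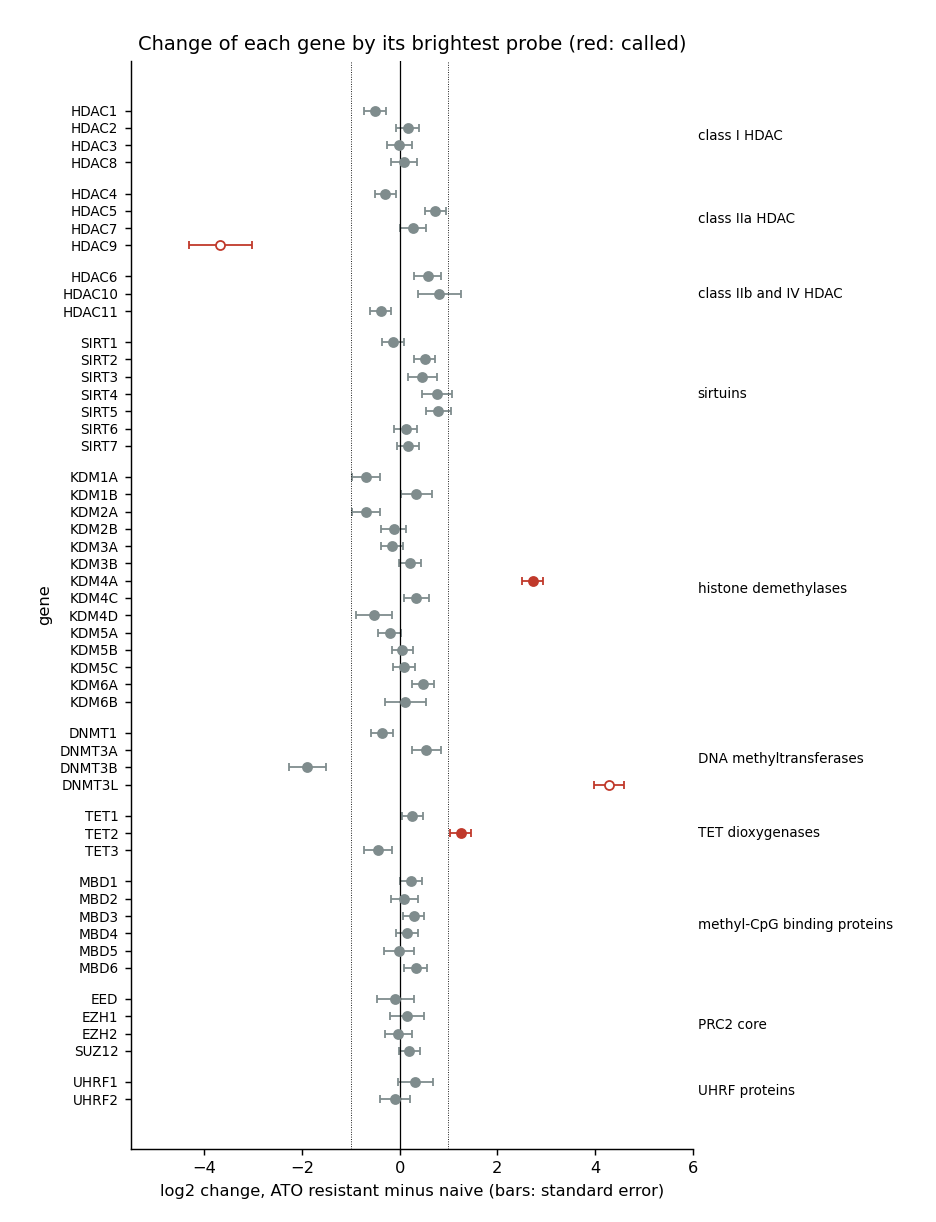
Log2 change of each of the 51 genes, resistant minus naive, with its standard error from limma, grouped by class; dotted lines mark 2-fold. The 4 called genes are in red, and open symbols are genes whose probe was not above background in 1 line, whose change is given as a bound in the text; DNMT3B is the only uncalled gene beyond the 2-fold lines.

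Among the DNA methyltransferases the resistant line gained a signal for DNMT3L, and DNMT3B was lower without passing the test. DNMT3L has no methyltransferase activity of its own and stimulates DNMT3A and DNMT3B, and it is best known from germ cells and embryonic stem cells. Its level was -7.23 and -7.69 in the naive flasks, not well above background in either, and -3.45 and -2.90 in the resistant flasks. The probe entered the test through the resistant line alone, so the separation of the flasks follows in part from the filter and is no separate support. The change was 4.28 (SE 0.31, limma adjusted p = 0.00256), and since the naive level is only a bound, DNMT3L was at least 8.46-fold higher in the resistant line. Such bounds set the mean of the measured line against the detection limit of the arrays of the other line, that is, the dimmest probe still called above background there, or the probe's own value where that was higher. On the second resistant array 1 MBD2 probe was brighter than that limit and still not above background, so the bounds are approximate. With the normexp background correction, which adds an offset to every signal, the change of the dim DNMT3L probe was 1.08 and no longer called. With the same offset and bright local backgrounds reset, its change was 1.22 and it was called (limma adjusted p = 0.0251).

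DNMT3B, a de novo methyltransferase, stood at 4.51 and 3.55 in the naive flasks and at 2.04 and 2.25 in the resistant flasks. The lines did not overlap, but the naive flasks were 0.96 apart. The change was -1.89 (SE 0.37, 95% interval -2.82 to -0.95) with a limma adjusted p of 0.0569. It was called with scale normalization (limma adjusted p = 0.0292), an intensity trend (0.0353) and normexp after bright local backgrounds were reset (0.0129). Of the 19 alternatives, 14 left it uncalled. Without the first or the second naive flask the change was -1.41 and -2.37. Without the first or the second resistant flask it was -1.78 and -1.99. Such fits take the spread of the line left with 1 flask from the other line, so their p-values are not set beside that of the main fit.

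DNMT1, the maintenance methyltransferase, stood at 3.82 and 3.67 against 3.50 and 3.27, a change of -0.36 with a limma adjusted p of 0.462. The brightest DNMT3A probe gave 2.05 and 2.02 in the resistant flasks, and 1.49 in naive flask 1. Its spot for naive flask 2 was marked as an outlier, so the change of 0.55 (adjusted p = 0.401) rests on 3 arrays. The other DNMT3A probe, measured on all arrays, had a change of 0.68 (adjusted p = 0.180). UHRF1, which brings DNMT1 to newly copied DNA, stood at 3.56 and 2.61 against 3.45 and 3.36, and its naive flasks lay on both sides of the resistant pair. The headers place both UHRF1 probes on chromosome 12 of hg19, while RefSeq has the gene on chromosome 19 of GRCh38, so it is uncertain which copy they read. Its paralog UHRF2 had a change of -0.10.

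**Figure D2:**
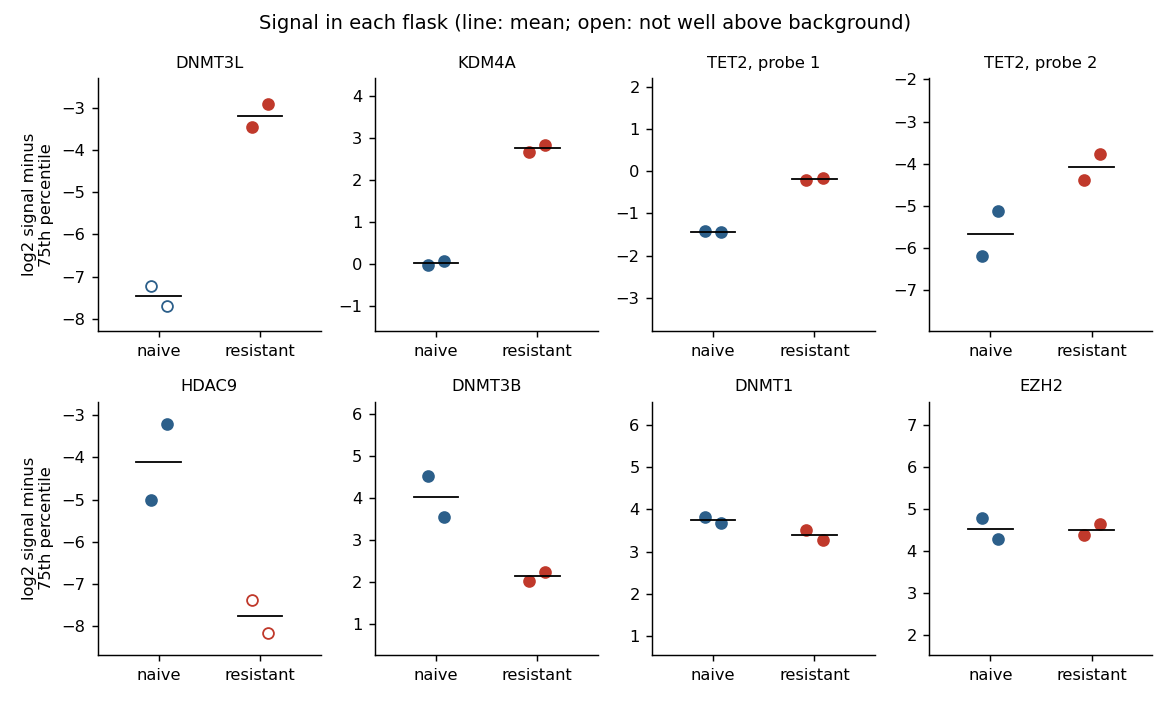
Log2 signal minus the array's 75th percentile in each flask of the naive (blue) and resistant (red) line for 8 probes, each panel spanning the same height on its own scale; lines are means of 2 flasks and open symbols are signals not well above background. DNMT3L, KDM4A and both TET2 probes lie higher in the resistant flasks and HDAC9 and DNMT3B lower, while the EZH2 values of the lines overlap.

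Of the 3 TET dioxygenases TET2 rose. TET2, a gene often mutated in myeloid disease, gave -1.42 and -1.44 in the naive flasks and -0.20 and -0.15 in the resistant flasks with its first probe. The naive flasks were 0.02 apart, and the lines did not overlap. The change was 1.26 (SE 0.22, limma adjusted p = 0.0387), or 2.39-fold. The second probe, dimmer on the array, gave -6.18 and -5.13 against -4.39 and -3.76, the same direction, with a change of 1.58 (SE 0.43) that missed the threshold (adjusted p = 0.133). The call was lost when the 2 probes were averaged (change 1.42, limma adjusted p = 0.0624). For the first probe alone it was lost without a filter on dim probes (limma adjusted p = 0.0740) and with a block for the replicate number (0.0704). Without the first or the second resistant flask the change of that probe was 1.28 and 1.23. The changes of TET1 (0.26) and TET3 (-0.44) were not called.

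None of the 6 genes of the MBD family was called, of which only some encode proteins that read DNA methylation or recruit deacetylases. Their changes lay between -0.01 for MBD5 and 0.33 for MBD6. Other probes of these genes went further: 1 MBD2 probe had a change of 0.74 (adjusted p = 0.19), and 1 MBD1 probe had -0.50 while the brightest MBD1 probe had 0.24. None of these was called.

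Among the 14 histone demethylases KDM4A stood apart. KDM4A removes the H3K9 and H3K36 methyl marks. Its level was -0.02 and 0.08 in the naive flasks and 2.67 and 2.84 in the resistant flasks, so that every flask was close to the other of its line and the lines did not overlap. The change was 2.72 (SE 0.22, limma adjusted p = 0.00365), or 6.60-fold. It lay between 2.64 and 2.81 with each of the 4 flasks left out in turn. The gene has a single probe on the array, which no second probe could check.

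The other 13 demethylases were not called and had changes between -0.69 and 0.48, with a median of 0.06. KDM4C, a paralog of KDM4A with 3 probes, had changes of 0.11 to 0.34, and KDM4D had -0.52. KDM1A, the flavin-dependent demethylase of H3 lysine 4 known as LSD1 and a partner of corepressor complexes, stood at 1.36 and 0.79 against 0.54 and 0.23. Its change of -0.69 (limma adjusted p = 0.292) was little larger than the 0.57 between the naive flasks, and KDM2A had the same value of -0.69. KDM6A and KDM6B, which remove the mark that PRC2 sets, had values of 0.48 and 0.12.

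Of the 11 classical histone deacetylases, HDAC9 fell and the other 10 were not called. HDAC9 is a class IIa enzyme that represses MEF2 target genes. Its level was -5.01 and -3.20 in the naive flasks, 1.81 apart, and -7.37 and -8.17 in the resistant flasks, where this probe was above background on neither array. The change was -3.67 (SE 0.64, limma adjusted p = 0.0411), and the lower bound on the fall of this probe in the resistant line was 5.16-fold. That bound was 9.66-fold without the first naive flask and 2.76-fold without the second. The call was lost with quantile normalization (limma adjusted p = 0.0682), with a block for the replicate number (0.0513) and without a filter on dim probes (0.0944). It was also lost with normexp (change -0.36, or -0.74 with bright local backgrounds reset). Without the first or the second resistant flask the change was -4.07 and -3.27. The call rests on 1 of 5 HDAC9 probes, and which HDAC9 transcripts that probe reads was not determined here. The other 4 were not tested. Of these, 1 was above background on the second naive array only, 1 on the first resistant array only, at a level of -5.48, and the others on no array, so that a signal for HDAC9 was seen in 1 resistant flask.

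The class I enzymes, of which HDAC1, HDAC2 and HDAC3 are the catalytic subunits of the Sin3, NuRD and NCoR corepressors, were not called. HDAC1 stood at 3.86 and 4.02 against 3.47 and 3.40, a change of -0.51 with no overlap and a limma adjusted p of 0.303. HDAC2, HDAC3 and HDAC8 had changes of 0.16, -0.01 and 0.10. In class IIa, the 3 probes of HDAC5 had changes of 0.71, 0.73 and 0.96, with adjusted p-values between 0.158 and 0.214, and the 4 probes of HDAC4 had -0.38 to -0.17. HDAC6, a tubulin deacetylase, had a change of 0.58 and HDAC10 had 0.82 (limma adjusted p = 0.344 and 0.387), the naive flasks of HDAC10 being 1.25 apart. The other HDAC6 probe had 0.11 (limma adjusted p = 0.924). HDAC11 had -0.39.

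No sirtuin was called, although 6 of 7 changes were above 0 and their median was 0.47. SIRT5, a mitochondrial enzyme that removes succinyl and malonyl groups, had a change of 0.79 (limma adjusted p = 0.189), SIRT4 had 0.76 (adjusted p = 0.264) and SIRT2, which is mainly cytoplasmic, had 0.51 (adjusted p = 0.294). The other SIRT5 probes had 0.31 and 0.83 (limma adjusted p = 0.769 and 0.254). SIRT3, SIRT6 and SIRT7 had 0.47, 0.12 and 0.18. SIRT1, the best studied nuclear sirtuin, was the exception at 0.76 and 0.94 in the naive and 0.78 and 0.65 in the resistant flasks, with overlapping lines and a change of -0.14.

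None of the PRC2 core genes was called, and their changes lay between -0.09 for EED and 0.20 for SUZ12. The methyltransferase EZH2 stood at 4.78 and 4.30 against 4.38 and 4.64, with overlapping lines, and its change of -0.03 had a 95% interval of -0.71 to 0.66. Its paralog EZH1 had a change of 0.16, and the 3 SUZ12 probes had 0.10 to 0.20.

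**Figure D3:**
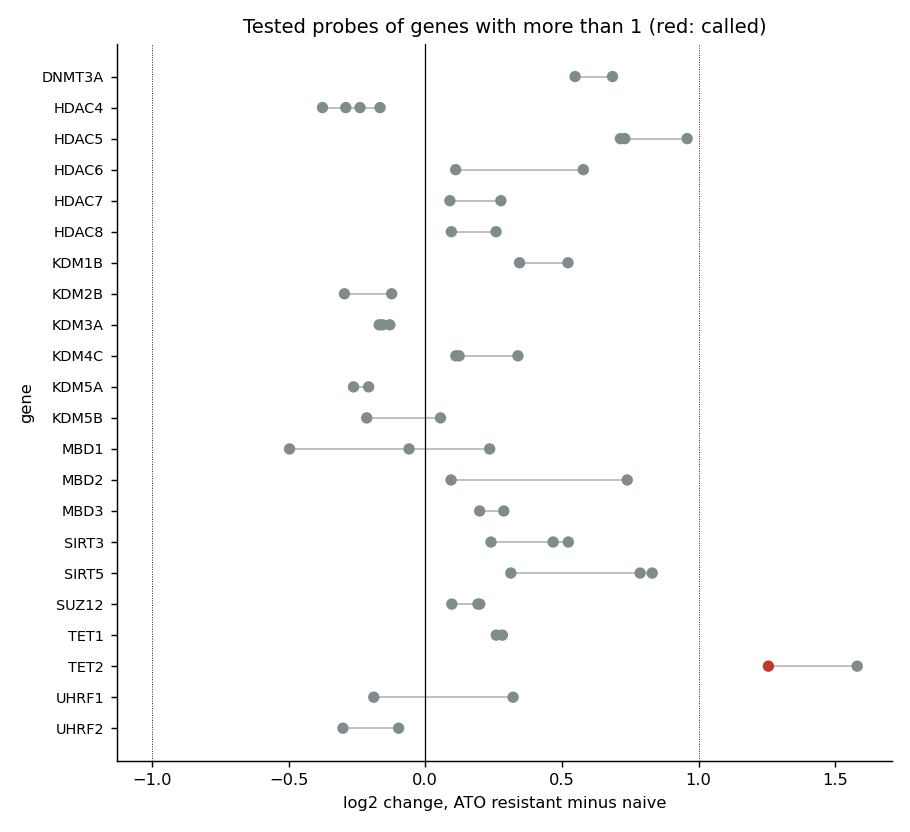
Log2 change of every tested probe for the 22 genes with more than 1, joined by a line per gene; called probes are in red and dotted lines mark 2-fold. In 19 genes all tested probes lie on the same side of 0, the exceptions being KDM5B, MBD1 and UHRF1, and the TET2 probes are the only ones beyond 2-fold.

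Over the group, 32 changes were above 0 and 19 below, with a median change of 0.14, where that of all genes was 0.0031. The median size of a change was 0.29, against 0.34 for all genes, 40 of the 51 (78.4%) lay within 1.5-fold where 71.5% of all genes did, and 5 (9.80%) reached 2-fold where 13.1% did. The flasks of the lines did not overlap for 31 of the 50 genes with all 4 values (62%, against 56% of all genes), 20 of them higher and 11 lower in the resistant line. Of the 50 genes with all 4 values, 5 were both at least 2-fold apart and free of overlap, where 12.7% of all genes were both. At an unadjusted limma p below 0.05 there were 7 genes, against 20.4% of all genes. The limma 95% interval of the change stayed within 2-fold for 27 of the 47 genes that were not called and reached 2-fold or more for the other 20. For all genes not called, the share within 2-fold was 47.4%.

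The flasks of the naive line lay further apart than those of the resistant line. The median gap between its flasks was 0.27 for these genes, against 0.13 between the resistant flasks, and over all genes the medians were 0.37 and 0.17. For 23 of the 50 genes the naive flasks differed by more than the lines did. The widest gap at any tested probe of the 51 genes was 2.50, between the naive flasks at a dim KDM4C probe.

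**Figure D4:**
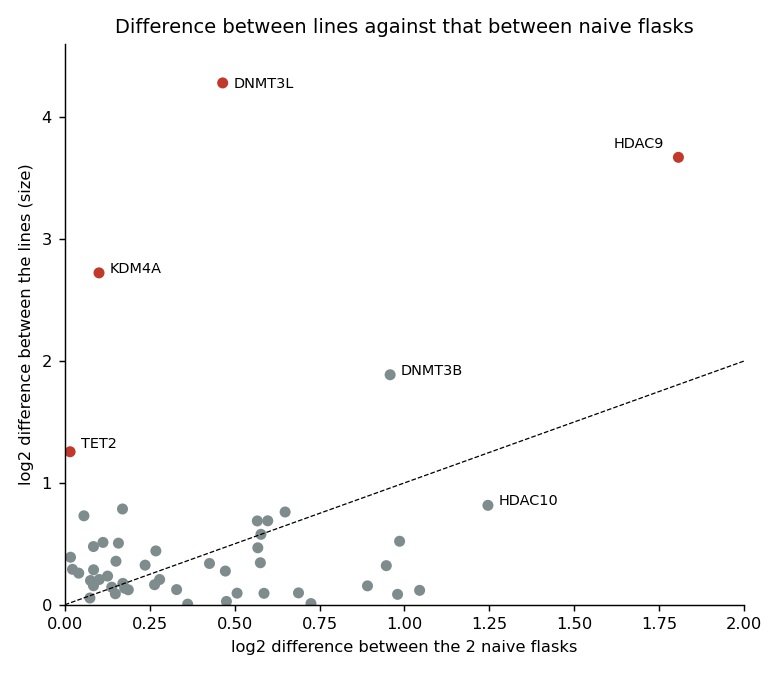
Size of the log2 difference between the lines (vertical axis) against the log2 difference between the 2 naive flasks (horizontal axis) for the 50 genes with all 4 values; the dashed line marks equality and called genes are in red. The 4 called genes and DNMT3B lie above the line, and 23 genes lie below it.

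Related genes were read from 7 lists, of partners of these enzymes, other histone-modifying enzymes, and genes of replication and division. In these lists 110 genes were tested and KAT2B alone was called (0.909%, against 5.95% of all genes, and 2.8% called higher). KAT2B, the acetyltransferase PCAF that opposes the deacetylases, stood at -2.53 and -1.79 in the naive flasks and at -0.39 and -0.35 in the resistant flasks. It rose by 1.79 (SE 0.31, limma adjusted p = 0.0413), and its second probe was called as well, with a change of 1.81. None of the other 11 acetyltransferases was called, and the median of the 12 was 0.29.

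No subunit of the corepressors that carry the deacetylases (NCoR, Sin3, CoREST and NuRD) was called among 21 tested, with changes from -0.73 to 0.85 and a median of 0.04. The 14 partners in DNA methylation and repair had a median of 0.14 and no call. ZBTB38, a methyl-CpG binding zinc finger protein, had a change of 1.89 (limma adjusted p = 0.0702), and GADD45A had -1.04 (0.158). The 20 Polycomb partners had a median of -0.04 and no call. BMI1, a core subunit of PRC1, had 1.02 (limma adjusted p = 0.0701), and 0.59 with its other probe. PHC1 had -1.01 (limma adjusted p = 0.0798), and -0.94 with its other probe. CBX7 had -1.44 (limma adjusted p = 0.391), its naive flasks being 2.44 apart. The medians were -0.01 for 21 histone methyltransferases, 0.06 for 5 demethylases listed under other names and -0.16 for 17 genes of replication and division, in all 3 with no call. Of the 5 demethylases, KDM7A had a change of -1.32 (limma adjusted p = 0.378), its naive flasks being 2.14 apart.

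**Figure D5:**
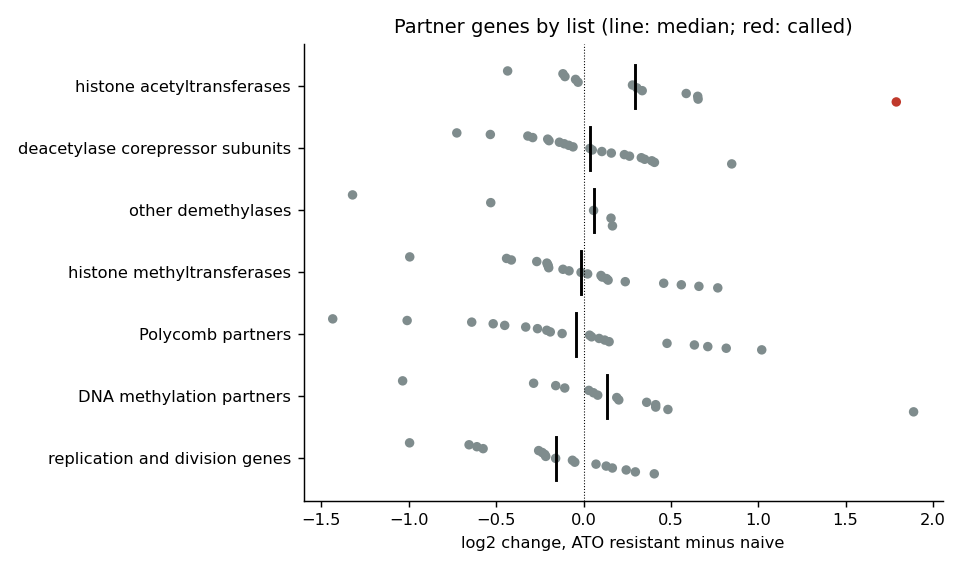
Log2 change of the 110 genes tested in 7 lists of related genes, resistant minus naive, with the median of each list as a line and the called gene in red. KAT2B is the only called gene, and the medians lie between -0.16 and 0.29.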

How the data were processed

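The authors extracted the array images with Agilent Feature Extraction 10.5.1.1 (header build hg19) and deposited a linear intensity for every spot, corrected for background and spatial trend, with a surrogate value for low spots. A log2 table shifted to each array's 75th percentile was deposited too, and used as an alternative. Its scale and direction matched the arrays (r of at least 0.9998), with medians of -3.64, -3.49, -3.59 and -3.63. In R 4.3.3 the intensities were put on the log2 scale, without control spots and outlier spots, averaged per probe and centred on the 75th percentile of their array. A probe was tested where both flasks of either line had it well above background. Tests were made with limma 3.58.1 (lmFit, eBayes, two-sided), with Benjamini-Hochberg adjustment over 28221 probes. For 167 of them a spot was missing and the fit used fewer arrays. With 2 flasks per line an exact two-sided permutation test cannot go below p = 0.333, so the spread pooled over probes is what gives the p-values. The fit was tested on simulated data.

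The members and lists were chosen with earlier results of these data known, and no set test was made. Values per array are given for called members, for members at least 2-fold apart without overlap, and for DNMT1, EZH2, UHRF1, HDAC1, KDM1A and SIRT1. Others are given as changes. DNMT3A was added after its values were seen because of its missing spot. Of the lists the called genes are named, with ZBTB38, GADD45A, BMI1, PHC1, CBX7 and KDM7A named after their values were seen. SIN3B, KDM4B and CARM1 were not matched on the array. RefSeq accessions named 26222 of 41000 probes. Arrays have no read depth, and their number limits the precision. The alternatives were other background corrections (normexp, offset 50), normalizations and filters, an intensity trend, the methods' t-test, a block for the replicate number, leaving out each flask, and the mean over a gene's probes. The lower bounds with each flask left out were added after the data were seen. The slide could not be a block, since all arrays share it.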

Additional observations from a re-analysis of the deposited data

How the results depend on the processing

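The changes of DNMT3L, KDM4A, TET2, HDAC9 and DNMT3B kept their direction under every alternative. Of 93 values of these genes 70 kept their side of the threshold, 18 lost the call and 5 gained it. The change ranged from 1.08 to 4.56 for DNMT3L, from 2.46 to 2.86 for KDM4A, from 0.96 to 1.42 for TET2, from -4.57 to -0.36 for HDAC9 and from -2.37 to -1.41 for DNMT3B. With normexp 0 of the 51 genes, 0 member probes and 0 of all probes were called by limma (3, 3 and 929 at an unadjusted p below 0.05, against 4 genes by the main limma fit), and the methods' t-test after adjustment called 0, 0 and 0 (11, 13 and 4138 unadjusted). With normexp after bright local backgrounds were reset, 4 genes, 4 member probes and 1189 of all probes were called by limma. Without a filter on dim probes 2 genes and 2 probes were called. Requiring signal on all 4 arrays left 2 genes, 2 probes and 760 of all probes, since DNMT3L and HDAC9 could not be tested. The deviations of flasks with the same replicate number had a correlation of 0.12. With 2 pairs this cannot tell whether the numbers pair the flasks. With the replicate block 2 genes, DNMT3L and KDM4A, were called (limma adjusted p = 0.0704 for TET2 and 0.0513 for HDAC9). With each flask left out, 2 to 8 genes, 2 to 13 member probes and 728 to 4536 of all probes were called. The highest counts came without naive flask 2 (HDAC10, KDM4D, SIRT4 and DNMT3B added) and the lowest without resistant flask 2. These fits take the spread of a line left with 1 flask from the other line. Such counts cannot be weighed against those of the main fit. The median change of the 51 genes was 0.11 with normexp after bright local backgrounds were reset, 0.26 with scale normalization and 0.19 with a median shift, and 0.12 to 0.18 with a flask left out. The median over all probes shifted by 0.15 with normexp and by 0.10 with scale normalization. The cause of the other lost calls was not tested.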
